A study of Ovis aries with 20 samples.

Results

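The subunits of the oxidative phosphorylation system that are encoded in the nucleus were read in granulosa and theca cells of adult sheep. Members were all genes of the table whose symbol begins with NDUFA, NDUFB, NDUFC, NDUFS or NDUFV, with UQCR, with COX4 to COX8 or with ATP5F, ATP5M or ATP5P, together with SDHA, SDHB, SDHC and SDHD. Assembly factors of the NDUFAF series were left out. The rule found 61 of 28524 genes: 36 subunits of complex I, 4 of complex II, UQCRH of complex III, COX5A and NDUFA4 of complex IV, NDUFA4L2 as a paralog of NDUFA4, and 17 entries of ATP synthase. Other genes of complexes III and IV, and the subunits encoded by mitochondrial DNA, were not analysed here. For 59 members each of the 19 libraries had a value above 0, and these 59 passed the filter of at least 10 normalized counts in at least 5 libraries. ATP5MC1 and ATP5MC1_1, entries for a c-ring subunit gene, reached at most 2.15 and 5.41 normalized counts in any library and were not tested.

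Control sheep (139, 224, 244, 246 and 268) were born to ewes that received vehicle. Prenatal T sheep (209, 210, 230, 276 and 315) were born to ewes injected in the muscle with T propionate, a testosterone ester, at 100 mg (1.2 mg per kg) from gestation day 30 until day 90. All offspring were 21 months old, and all were brought into synchronized estrus by prostaglandin F2α at 10 mg, given again after 11 days, with collection of the ovaries 18 hours later. Each library came from cells microdissected from ovary sections, with several antral follicles of 1 animal pooled by layer, so differences between follicles of an animal are not seen. There were 4 control and 5 prenatal T granulosa libraries and 5 and 5 theca libraries. Granulosa cells of sheep 139 were not analysed here.

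Oxidative phosphorylation takes electrons from NADH at complex I and from succinate at complex II, passes them through complex III and cytochrome c to oxygen at complex IV, and uses the resulting proton gradient to drive ATP synthase. Each complex except complex II is built from products of both the nuclear and the mitochondrial genome. In the follicle, the granulosa layer lies inside a basement membrane without blood vessels of its own, whereas the theca around it is vascularised. Synthesis of steroids from cholesterol starts at an enzyme of the inner mitochondrial membrane.

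Libraries held 12.7 to 26.0 M recovered reads. The 61 members together took 0.257 to 0.609% of all counts, from 39976 to 119055 reads per library. The layers were checked against marker genes. Of 14 granulosa markers 11 were higher in granulosa cells, and 13 of 13 theca markers were lower there. The summed theca markers were 22067 to 86939 normalized counts in granulosa libraries and 650648 to 934354 in theca libraries, leaving out sheep 209. Both libraries of prenatal T sheep 209 lacked some follicle markers. AMH, FSHR and CYP19, which define granulosa cells, and CYP17A1, which defines theca cells, were at 0 in both. INHA, a granulosa marker, was at 8.05 and 7.59 in its granulosa and theca library, where every other granulosa library held at least 7238. INSL3, a theca marker, was at 1.15 and 1.27, where every other theca library held at least 3546. Some markers were present, such as SERPINE2 of the granulosa list at 23197.5 and 14166.1. Its summed theca markers (13 genes) were 30038 in the granulosa and 447611 in the theca library. The collagens COL1A1, COL1A2 and COL3A1 held 127254, 106209 and 108626 of the theca sum. These sums differed between its libraries but do not show that the libraries held granulosa and theca cells. Its summed granulosa markers (14 genes) were 25751 and 26129, where every other granulosa library held at least 91919. Its summed immune cell markers (9 genes) were 29596 and 23437 in the granulosa and theca library, where no other library exceeded 6690. Its summed epithelial markers (11 genes) were 98835 and 24204, where no other library exceeded 4153. Each comparison is therefore given with all animals and without sheep 209. In bulk RNA, fewer cells of a type and less RNA per cell cannot be told apart.

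The comparison of the layers asked which subunits separate granulosa from theca cells within an animal. Changes are log2(normalized count + 1), granulosa minus theca, ± SE of a limma fit with the animal as a block, over all animals unless stated. Of the 59 tested members, 25 were higher and 2 were lower in granulosa cells at an adjusted p under 0.05, or 42.4% and 3.39%. Among all 16269 genes tested, 28.6% were higher and 28.0% lower. The median change was 0.12 for the members and 0.02 for all genes, and 42 of 59 members lay above 0. Without sheep 209 the same 25 were higher and 7 were lower, while all genes gave 31.7% and 31.0%.

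**Figure D1:**
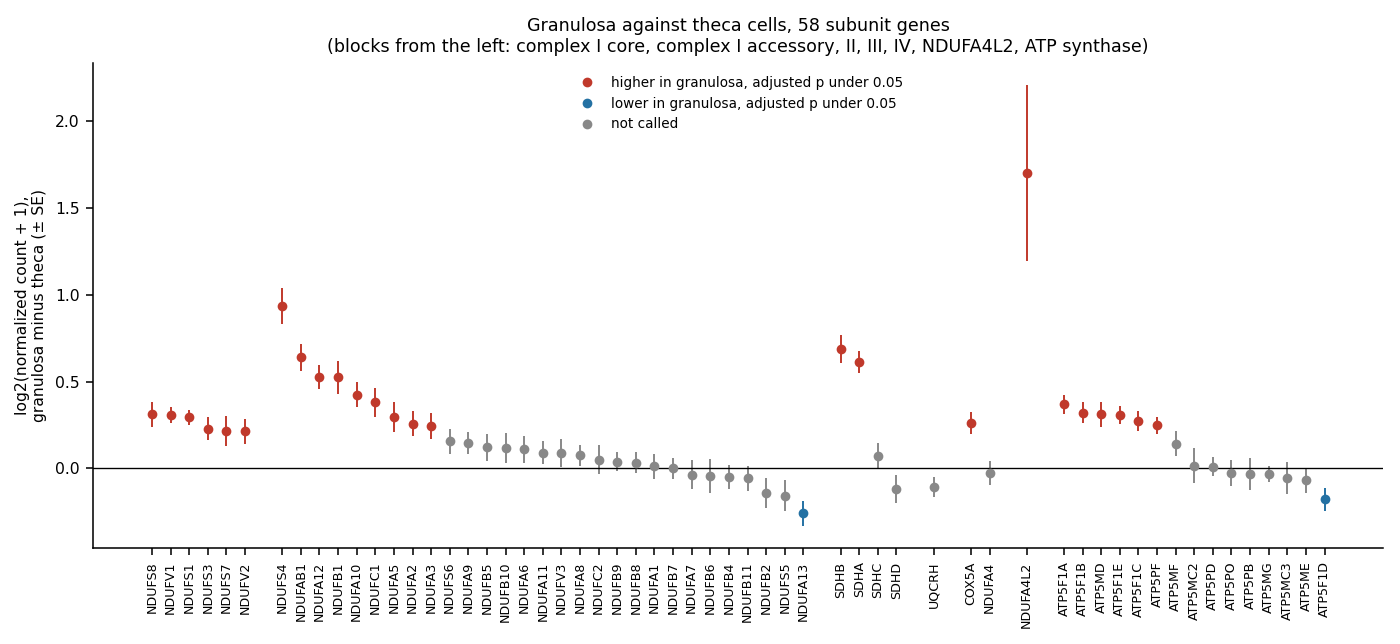
Change of 58 of the 59 tested subunit genes between layers. The vertical axis is log2(normalized count + 1) in granulosa minus theca cells with its SE. The fit held 19 libraries of 10 animals, and the change rests on the 9 animals with both layers. The 25 genes above 0 that passed the test are red, the 2 below 0 that passed are blue and the others are grey. NDUFA4L2 lies highest at 1.70 with the widest SE, and SDHB and SDHA passed the test, where SDHC and SDHD did not.

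NDUFA4L2, a paralog of the complex IV subunit NDUFA4 that is known as a gene induced by the hypoxia factor HIF-1, had the largest change of all members. In control granulosa cells its level was 387, 429, 236 and 311 normalized counts in sheep 224, 244, 246 and 268. The prenatal T granulosa libraries held 285, 912, 597 and 443 in sheep 210, 230, 276 and 315, and 17 in sheep 209. In theca cells it was 66, 71, 59, 79 and 79 in controls 139, 224, 244, 246 and 268 and 118, 140, 88, 116 and 80 in prenatal T sheep 209, 210, 230, 276 and 315. Apart from sheep 209, the lowest granulosa library was above the highest theca library. The change was 1.70 ± 0.51 (adjusted p = 0.0136), and 2.25 ± 0.21 without sheep 209 (adjusted p = 2.7e-06). Sheep 209 alone went the other way, with 17 in granulosa and 118 in theca cells. NDUFA4 itself was 321 to 732 in granulosa and 330 to 816 in theca libraries, and these ranges overlapped (-0.03 ± 0.07, adjusted p = 0.779).

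The ratio of NDUFA4L2 to NDUFA4 does not depend on how libraries are scaled. It was higher in granulosa cells in 8 of 9 animals, by 1.72 ± 1.79 log2 units (mean ± SD, n = 9). Without sheep 209 it was higher in 8 of 8, by 2.27 ± 0.76 (SD, n = 8). This ratio and 8 others below were chosen after the levels were seen, and are given as a description with no test. HIF1A, which encodes the regulated subunit of HIF-1 and is no subunit gene, was higher in granulosa cells as well. Its level was 16883 ± 4422 in control granulosa cells (SD, n = 4) and 4562 ± 471 in control theca cells (SD, n = 5), and its change was 1.65 ± 0.18 (adjusted p = 1.58e-05). HIF-1 protein was not measured.

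**Figure D2:**
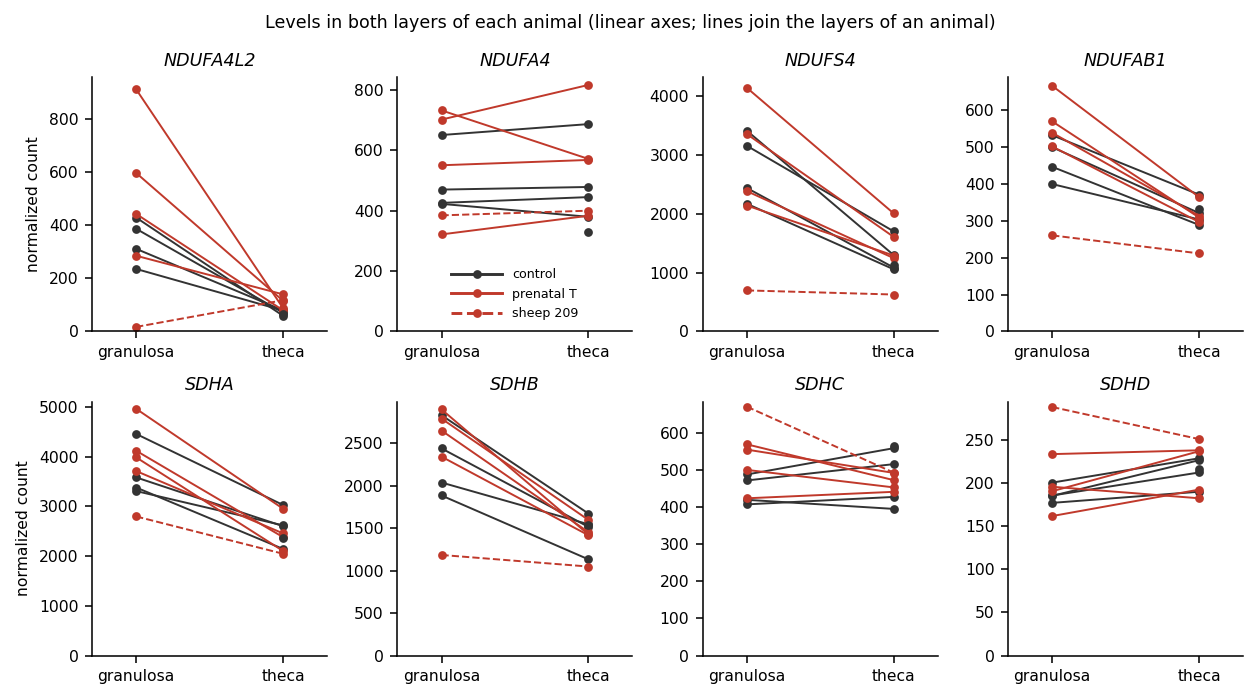
Normalized counts on linear axes for 8 subunit genes in granulosa and theca cells, with a line for each animal with both layers (controls black, prenatal T red, sheep 209 dashed) and a single theca point for control sheep 139. Lines for NDUFS4, NDUFAB1, SDHA and SDHB fall from granulosa to theca in each of the 9 animals, while those for NDUFA4, SDHC and SDHD run in both directions.

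Complex II, succinate dehydrogenase, is also an enzyme of the citric acid cycle, and 2 of its 4 subunits passed the test. Among all genes 28.6% were higher and 28.0% lower, so this count alone does not set complex II apart. SDHA carries the flavin site where succinate is oxidised. It was 3582, 3379, 3308 and 4456 in granulosa cells of controls 224, 244, 246 and 268 and 2797, 3710, 3985, 4961 and 4118 in those of prenatal T sheep 209, 210, 230, 276 and 315. In theca cells SDHA was 2355, 2602, 2144, 2618 and 3028 in controls 139, 224, 244, 246 and 268 and 2047, 2457, 2104, 2953 and 2381 in prenatal T sheep 209, 210, 230, 276 and 315. The layers overlapped only through sheep 209, since each other granulosa library was above each theca library.

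SDHB, the iron-sulfur subunit, was 1886 to 2831 in control granulosa cells and 2343 to 2900 in prenatal T granulosa cells other than sheep 209, which was at 1185. In theca cells it was 1134 to 1673 in controls and 1049 to 1598 in prenatal T animals. SDHA and SDHB were higher in granulosa cells by 0.61 ± 0.06 (adjusted p = 1.29e-05) and 0.69 ± 0.08 (adjusted p = 2.92e-05). The membrane anchors SDHC and SDHD, which hold the catalytic pair in the inner membrane and form the quinone site with it, had changes nearer 0. SDHC was 407 to 670 in granulosa and 395 to 564 in theca libraries, with a change of 0.07 ± 0.07. SDHD was 162 to 288 and 182 to 251, with a change of -0.12 ± 0.08. Neither anchor passed the test (adjusted p = 0.426 and 0.247).

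Ratios inside each library, chosen after the levels were seen and not tested, describe the difference within complex II. The ratios of SDHA to SDHC and of SDHA to SDHD were higher in granulosa cells in 9 of 9 animals, by 0.54 ± 0.26 and 0.73 ± 0.25 log2 units (mean ± SD, n = 9). The ratios of SDHB to SDHC and to SDHD were higher in 8 of 9 animals, by 0.61 ± 0.39 and 0.80 ± 0.38. The exception in both was sheep 209. Without it all 4 ratios were higher in 8 of 8 animals, by 0.61 to 0.91 on average.

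Complex I oxidises NADH through core subunits, surrounded by accessory subunits that stabilise it. Core subunits of the nuclear genome that were higher in granulosa cells were NDUFV1, which binds NADH and flavin (0.31 ± 0.05, adjusted p = 0.000214), NDUFS1, an iron-sulfur subunit beside it (0.29 ± 0.04, adjusted p = 0.000154), and NDUFS8, NDUFS3, NDUFS7 and NDUFV2 at 0.31, 0.23, 0.21 and 0.21. NDUFV1 stood at 1284 to 1907 in control granulosa and 1032 to 1581 in control theca cells, so the groups overlapped and the difference showed within animals.

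Among the 29 accessory subunits of complex I, 9 were higher (31.0%, near the 28.6% of all genes) and 1 was lower (3.4%, against 28.0%). NDUFS4, which is needed for a stable NADH-oxidising arm, differed most. It was 2168, 2436, 3152 and 3409 in granulosa cells of controls 224, 244, 246 and 268 and 697, 2138, 3351, 4137 and 2382 in prenatal T sheep 209, 210, 230, 276 and 315. In theca cells it was 1123, 1055, 1085, 1699 and 1296 in controls 139, 224, 244, 246 and 268 and 628, 1289, 1604, 2004 and 1245 in prenatal T sheep 209, 210, 230, 276 and 315. Both libraries of sheep 209 were the lowest of their layer, and apart from them the layers did not overlap. The change was 0.94 ± 0.10 (adjusted p = 2.12e-05), and 1.03 ± 0.07 without sheep 209.

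NDUFAB1, the mitochondrial acyl carrier protein, which also serves fatty acid synthesis, stood at 399 to 531 in control granulosa and 288 to 370 in control theca cells. Prenatal T animals had 501 to 665 and 296 to 363 apart from sheep 209, at 260 and 211. The change was 0.64 ± 0.08 (adjusted p = 3.72e-05). NDUFA12 (0.53 ± 0.07), NDUFB1 (0.52 ± 0.09), NDUFA10 (0.43 ± 0.07) and NDUFC1 (0.38 ± 0.08) followed, and NDUFA5, NDUFA2 and NDUFA3 passed at 0.30, 0.26 and 0.25. The accessory subunit that was lower in granulosa cells was NDUFA13, also known as the cell death gene GRIM-19. Its level was 612 to 771 in control granulosa and 723 to 1056 in control theca cells, which overlapped, and its change was -0.26 ± 0.07 (adjusted p = 0.00901). NDUFA13 was lower in granulosa cells in 8 of 9 animals, all but sheep 209. Without sheep 209 NDUFS5 (-0.24 ± 0.06, adjusted p = 0.00405) and NDUFB2 (-0.20 ± 0.08, adjusted p = 0.0455) passed too. The remaining accessory subunits, such as NDUFB7 (0.00 ± 0.06) and NDUFA1 (0.01 ± 0.07), did not pass.

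Complexes III and IV were represented by few genes. UQCRH, the hinge protein of complex III next to cytochrome c1, was 1242 to 2053 in granulosa and 1082 to 2161 in theca libraries. Its change was -0.11 ± 0.06 (adjusted p = 0.137), and -0.15 ± 0.05 without sheep 209 (adjusted p = 0.0244). COX5A of complex IV was higher in granulosa cells by 0.26 ± 0.06 (adjusted p = 0.00423), with 452 to 687 in control granulosa and 350 to 677 in control theca cells.

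Of 15 tested ATP synthase subunits 6 were higher in granulosa cells (40%) and 1 was lower (6.7%). Among all genes 28.6% were higher and 28.0% lower, so this count alone does not set ATP synthase apart. Of its 7 calls 5 fell in the catalytic head. The other 2, both higher, were among 10 tested subunits, a smaller share than the 28.6% of all genes. The head, F1, is made of the subunits alpha, beta, gamma, delta and epsilon. ATP5F1A (alpha) was 7770, 7347, 9470 and 9776 in granulosa and 6717, 5340, 7979 and 7695 in theca cells of controls 224, 244, 246 and 268. In prenatal T sheep 209, 210, 230, 276 and 315 it was 6444, 8841, 10758, 10798 and 8886 in granulosa and 5027, 7238, 7459, 8670 and 5991 in theca cells. Every animal had the higher value in granulosa cells, although the groups overlapped. The changes were 0.37 ± 0.05 for ATP5F1A (adjusted p = 0.000145), 0.32 ± 0.06 for ATP5F1B (beta), 0.31 ± 0.05 for ATP5F1E (epsilon) and 0.27 ± 0.06 for ATP5F1C (gamma), and all 4 passed the test.

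ATP5F1D (delta) was lower, at -0.18 ± 0.07 (adjusted p = 0.0411). Its level was 1675 to 2456 in control granulosa and 1911 to 2945 in control theca cells. This call did not hold under TMM scaling (adjusted p = 0.077), in edgeR (0.0665), without the filter (0.0595) or without any 1 of sheep 210, 224, 244, 246, 268, 276 and 315 (0.0567 to 0.098), while without sheep 209 it was -0.23 ± 0.05 (adjusted p = 0.00292). The ratios of ATP5F1A, ATP5F1B, ATP5F1C and ATP5F1E to ATP5F1D were each higher in granulosa cells in 9 of 9 animals, by 0.45 to 0.55 on average (n = 9). These ratios were chosen because of the calls, so they describe the levels and lend the ATP5F1D call no support.

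Of the other ATP synthase subunits, ATP5PF of the peripheral stalk (0.25 ± 0.05, adjusted p = 0.00131) and ATP5MD, a small membrane subunit (0.31 ± 0.07, adjusted p = 0.0035), were higher in granulosa cells. The stalk subunits ATP5PB, ATP5PD and ATP5PO, the membrane subunits ATP5ME, ATP5MF and ATP5MG and the c-ring genes ATP5MC2 and ATP5MC3 lay between -0.07 and 0.14 and did not pass. ATP5MC3 was lower without sheep 209 (-0.14 ± 0.06, adjusted p = 0.0437).

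Counted by animal, 20 members were higher in granulosa cells in each of the 9 animals with both layers (33.9% of 59, against 15.8% of all genes). No member was higher in theca cells in all 9, against 15.0% of all genes. Without sheep 209, 21 members were higher in granulosa cells in all 8 animals (35.6%, against 23.4% of all genes). Higher in theca cells in all 8 were 2 members, among them NDUFA13 (3.39%, against 22.5%).

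Genes that build and supply the system were read from lists apart from the members, and their counts stand against 28.6% higher and 28.0% lower among all genes. The assembly factors of ATP synthase were higher in granulosa cells in 4 of 4 cases, among them ATPAF2 (0.57 ± 0.10, adjusted p = 0.000424) and ATPAF1 (0.43 ± 0.08, adjusted p = 0.000891), which help to build the F1 head. Of 6 complex IV assembly genes 5 were higher and none was lower, with COX15, a heme A synthase, at 0.80 ± 0.07 (adjusted p = 6.08e-06). Complex I assembly factors gave 9 higher and 1 lower of 19, with NDUFAF7 at 0.37 ± 0.08, and factors for complexes II and III gave 2 higher of 6, SDHAF1 at 0.37 ± 0.14 and TTC19 at 0.36 ± 0.10. The latter share, 33.3%, was near that of all genes.

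In the list for the citric acid cycle and pyruvate entry 13 genes were higher and 1 was lower of 20. PC, pyruvate carboxylase, was higher by 1.43 ± 0.09 (adjusted p = 4.69e-07), and FH, fumarase, by 0.48 ± 0.05. Mitochondrial membrane, import and chaperone genes gave 18 higher and 2 lower of 26, with IMMT, the organiser of the cristae, at 0.59 ± 0.07. SLC25A4, an ADP/ATP carrier known from muscle, was lower in granulosa cells by -0.63 ± 0.08 (adjusted p = 4.17e-05). Regulators of respiratory genes gave 4 higher and 3 lower of 17 tested (23.5% and 17.6%, both under the shares of all genes), and POLRMT, the mitochondrial RNA polymerase, was higher by 0.62 ± 0.09. Of 5 subunits and carriers outside the name rule, 1 was higher, HIGD2A of complex IV at 0.55 ± 0.09, and 1 was lower, C7H15orf48, which encodes a further paralog of NDUFA4. C7H15orf48 was scarce, with 0 to 13.0 normalized counts in granulosa and 4.27 to 37.5 in theca libraries other than those of sheep 209, which held 819 and 294. Its change was -1.64 ± 0.53 (adjusted p = 0.0204), and -2.03 ± 0.47 without sheep 209 (adjusted p = 0.00243). Its granulosa values lay near or under the filter of 10, so the size of this change is uncertain. No contrast with NDUFA4L2 is drawn from it. The median changes of these lists ran from 0.09 to 0.42. The smooth muscle and pericyte markers (10 genes) summed to 20244 to 45414 in granulosa and 108272 to 223650 in theca libraries other than sheep 209, and their part in these differences was not tested.

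Prenatal T animals were then set against controls, to ask whether subunit expression in the adult follicle differed after testosterone exposure before birth. Granulosa libraries held 19.8 ± 5.2 M recovered reads in controls (SD, n = 4) and 14.2 ± 1.4 M in prenatal T animals (SD, n = 5). The part of this difference in the result was not tested. In granulosa cells 50 of 59 members lay above 0 (84.7%, against 48.3% of all genes). Their median log2 change was 0.13 where all genes had -0.01. The limma test called 0 of 14724 genes, 0.00%, and no member. At an unadjusted p under 0.05 stood 1 member, ATP5MC3 (1.69% of 59), against 4.22% of all genes. No member had groups that did not overlap, where 2.41% of all genes did. Without sheep 209 57 of 59 were above 0 (96.6%, against 47.9% of all genes), at a median of 0.18 where all genes again had -0.01. The test again called 0.00% of genes, 2 members (ATP5MC3 and NDUFA9) had an unadjusted p under 0.05 against 7.01% of all genes, and no member had groups that did not overlap, against 3.85%. edgeR called no gene and DESeq2 16 genes, or 32 without sheep 209, none of them a member. Leaving out each animal in turn moved the median of the members between 0.053 and 0.203. The lowest value was that without prenatal T sheep 276 and the highest that without control 268.

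ATP5MC3, which encodes a form of the proton-carrying c subunit, had the smallest p. It was 822, 732, 942 and 1091 in granulosa cells of controls 224, 244, 246 and 268 and 1074, 994, 1106, 1178 and 1152 in prenatal T sheep 209, 210, 230, 276 and 315. The groups overlapped through control 268, and the change was 0.31 ± 0.13 (adjusted p = 0.875). NDUFA9, a subunit between the arms of complex I, was 588 to 786 in controls and 754 to 949 in prenatal T animals (0.28 ± 0.13, adjusted p = 0.875). NDUFV2 (0.34 ± 0.16), ATP5F1C (0.25 ± 0.13), NDUFS1 (0.28 ± 0.17) and NDUFA2 (0.30 ± 0.18) came next by p and did not pass.

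Members at which sheep 209 was far from its group changed sign or size with it. NDUFA4L2 in granulosa cells had a change of -0.34 ± 1.01 with and 0.62 ± 0.34 without sheep 209 (adjusted p = 0.942 and 0.738). With all animals its change was above 0 in DESeq2 (0.417) and edgeR (0.425). NDUFS4 had -0.33 ± 0.46 and 0.08 ± 0.23. SDHA had 0.07 ± 0.17 and 0.19 ± 0.13, SDHB -0.00 ± 0.27 and 0.23 ± 0.14, SDHC 0.27 ± 0.15 and 0.19 ± 0.13 and SDHD 0.17 ± 0.20 and 0.05 ± 0.16. None of these passed. In the same libraries the summed theca markers were 36677 to 86939 in controls and 22067 to 44061 in prenatal T animals other than sheep 209, at 30038. Without sheep 209, 14 of 14 granulosa markers were above 0 in this comparison (median 0.33). Of 13 theca markers 1 was above 0 (median -0.50), and of 8 immune cell markers 0 were (median -0.46). The part of these cells in the granulosa result was not tested.

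In theca cells 41 of 59 members were above 0 (69.5%, against 50.0% of all genes), at a median of 0.06 where all genes had 0.00. The test called 0 of 15492 genes, 0.00%. NDUFA4L2 was the sole member higher in prenatal T animals at an unadjusted p under 0.05, against 4.05% of all genes. It was also the sole member with each prenatal T library above each control, as the levels given with its layer difference show, against 1.28% of all genes. Its highest control, sheep 268, stood at 79.5 and its lowest prenatal T animal, sheep 315, at 79.6, which differ by less than 1 read is worth in either library. The change was 0.58 ± 0.21 (adjusted p = 0.644). HIF1A in theca cells was 4562 ± 471 in controls (SD, n = 5) and 9287 ± 6172 in prenatal T animals (SD, n = 5), or 6597 ± 1598 without sheep 209 (SD, n = 4). Its change was 0.84 ± 0.32 (adjusted p = 0.644), and 0.51 ± 0.15 without sheep 209 (adjusted p = 0.371), and it did not pass.

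Without sheep 209 44 of 59 members were above 0 in theca cells (74.6%, against 48.3% of all genes). Their median was 0.16 where all genes had -0.01. The test called 0.00% of genes. At an unadjusted p under 0.05 stood 10 members, each higher in prenatal T animals, 16.9% against 6.34% of all genes. Among them were NDUFS5, NDUFV2, NDUFB5, NDUFC2, NDUFB8 and NDUFA6 of complex I, ATP5F1E and ATP5F1C of ATP synthase, and NDUFA4L2. The smallest p was that of NDUFS5, an accessory subunit of the membrane arm. It was 1380, 1265, 1063, 1451 and 1496 in controls 139, 224, 244, 246 and 268 and 1458, 2003, 2054 and 1704 in prenatal T sheep 210, 230, 276 and 315. The groups overlapped through sheep 210, and the change was 0.44 ± 0.14 (adjusted p = 0.371).

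In the same comparison without sheep 209, 13 of 14 granulosa markers were above 0 (median 0.36) and 1 of 9 immune cell markers was (median -0.53). The granulosa markers summed to 25507 to 43534 in control and 30563 to 58028 in prenatal T theca libraries, and the immune markers to 3935 to 6690 and 1598 to 5985. The part of these cells in the result was not tested. ATP5F1E gave 0.39 ± 0.12 (adjusted p = 0.371). NDUFA4L2 again was the sole member with all prenatal T above all controls, against 2.53% of all genes. The median of the members was between -0.013 and 0.156 when each animal was left out, and it fell below 0 without control 244, without prenatal T sheep 276 and without prenatal T sheep 230. DESeq2 called 7 genes in theca cells, or 58 without sheep 209, none of them a member. SDHA, SDHB, SDHC and SDHD lay between -0.10 and 0.03, and between -0.07 and 0.00 without sheep 209.

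**Figure D3:**
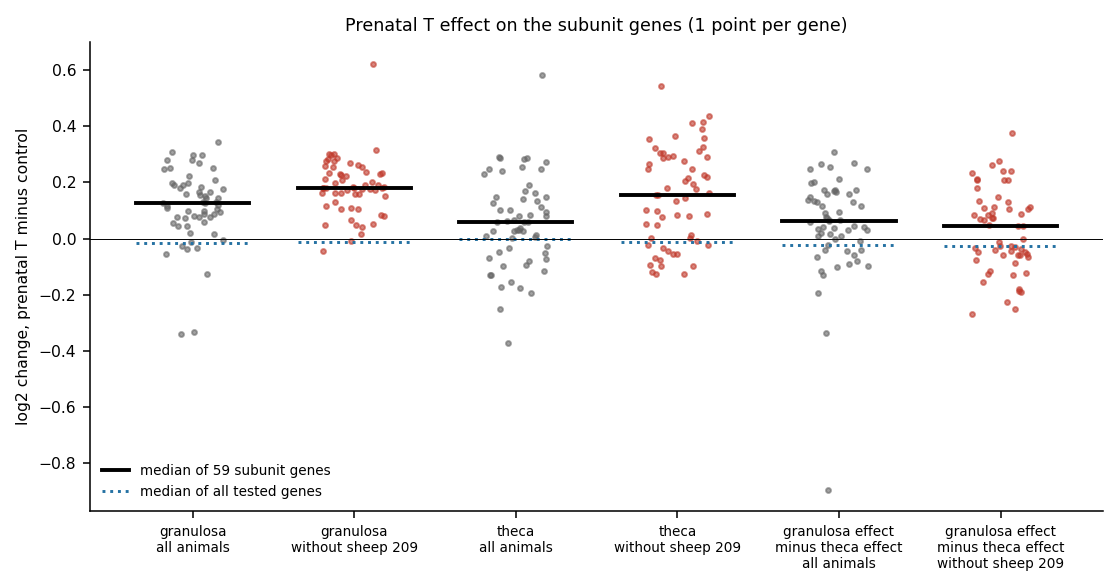
Log2 change between prenatal T and control animals for the 59 tested subunit genes in granulosa cells, in theca cells and for the granulosa effect minus the theca effect, with all animals (grey) and without sheep 209 (red). Solid bars are the medians of the 59 genes (0.13, 0.18, 0.06, 0.16, 0.06 and 0.04 from the left) and dotted bars those of all tested genes, all near 0, and no point passed the adjusted test.

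The difference of the effects between layers was tested in 1 model. It called 0 of 16269 genes, 0.00%, with 1 member (NDUFA9) at an unadjusted p under 0.05 against 4.66% of all genes. Without sheep 209 it called 0.00%. At an unadjusted p under 0.05 stood 5 members (8.47% of 59), near the 8.28% of all genes, so this count does not set the members apart. NDUFS7 (0.38 ± 0.14), NDUFAB1 (0.28 ± 0.12) and SDHA (0.26 ± 0.10) had the larger prenatal T change in granulosa cells, and NDUFS5 (-0.27 ± 0.09) and UQCRH (-0.19 ± 0.08) in theca cells (adjusted p = 0.537 to 0.601). The median difference of the members was 0.06, and 0.04 without sheep 209. The 2 effects share no library but share animals.

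Expression of the members varied between animals of the same group, and an animal tended to lie on the same side in both layers. Each member's log2 value was set against the mean of the controls of its layer, and the median of the 59 departures was taken per library. In granulosa and theca cells it was -0.21 and -0.33 in control 244, -0.11 and -0.01 in control 224, 0.10 and 0.12 in control 246 and 0.21 and 0.18 in control 268. In prenatal T animals it was 0.03 and 0.01 in sheep 210, 0.13 and 0.02 in sheep 315, 0.28 and 0.17 in sheep 230, 0.36 and 0.33 in sheep 276 and -0.10 and -0.28 in sheep 209. Control 139 had 0.04 in theca cells. Over all tested genes the same median lay between -0.04 and 0.04 in every library. Control 244 was thus low and prenatal T sheep 276 high in both layers, and the controls alone spanned most of this range.

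**Figure D4:**
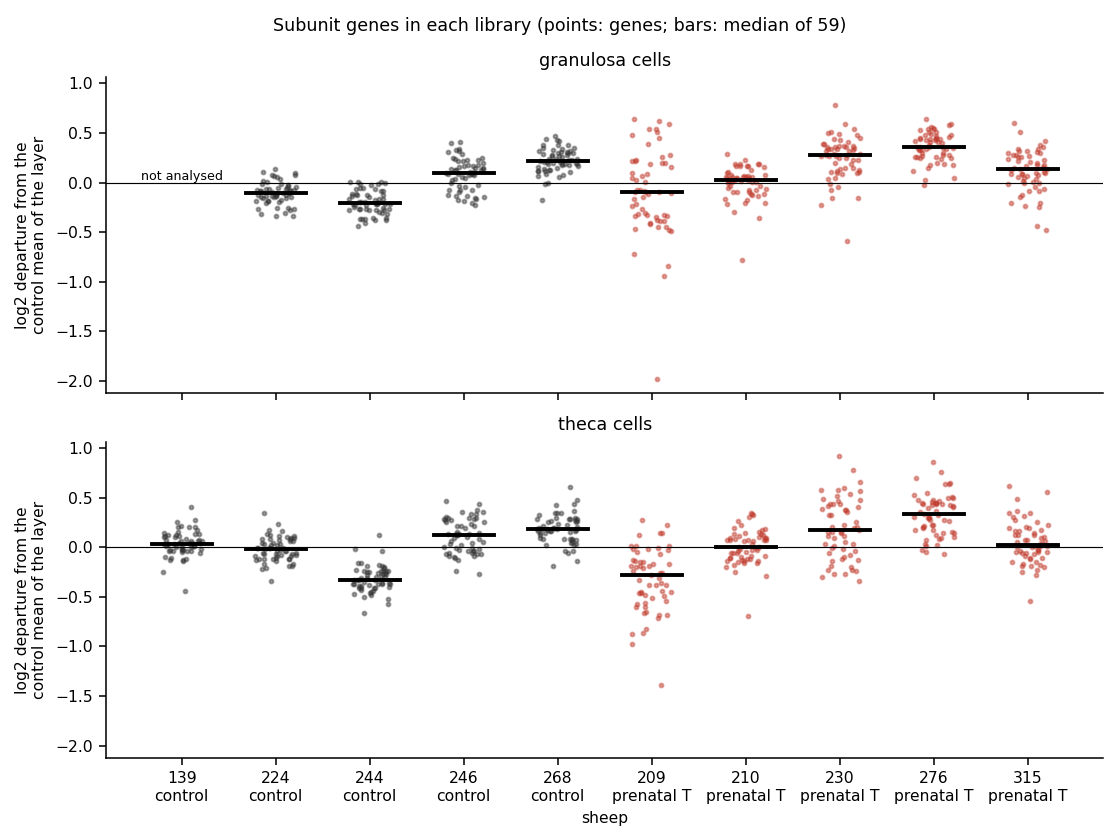
Departure of each subunit gene from the control mean of its layer (log2, vertical axis) in every library, by sheep (controls black, prenatal T red), with bars for the median of 59 genes; points leave out NDUFA4L2, whose departures are larger. Control 244 lies lowest at -0.21 and -0.33 apart from the scattered values of sheep 209, and sheep 276 lies highest at 0.36 and 0.33.

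The pattern ran over many genes. Leaving out sheep 209, control 244 had the lowest value of its layer for 33 of 59 members in granulosa and 47 of 59 in theca cells. Sheep 276 had the highest for 27 and 22 members, and sheep 230 for 18 and 15. In granulosa cells 58 of 59 members of sheep 276 lay above the control mean and 4 of 59 of sheep 244 did. Citric acid cycle genes (20 genes) had medians of -0.11 and -0.23 in sheep 244 and 0.33 and 0.22 in sheep 276. Mitochondrial membrane, import and chaperone genes (26 genes) had -0.08 and -0.23 and 0.30 and 0.29. Cytosolic ribosomal protein genes (72 genes) had -0.23 and -0.27 in sheep 244 and 0.04 and 0.06 in sheep 276. The low level of sheep 244 was thus not particular to mitochondrial genes. Recovered reads were 13.6 and 15.5 M in sheep 244 and 13.3 and 15.0 M in sheep 276.

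Within groups and without sheep 209, the SD of a member's log2 level had a median of 0.23 in granulosa and 0.22 in theca cells. The ratio of the highest to the lowest library of a layer had a median of 1.61 and 1.69. The most variable member in granulosa cells was NDUFA4L2 (SD 0.57, highest over lowest 3.87), and in theca cells NDUFA5, an accessory subunit of complex I (SD 0.54, highest over lowest 2.78). NDUFA5 was 275 in granulosa and 220 in theca cells of sheep 210, and 417 to 671 and 248 to 610 in the other animals apart from sheep 209, so sheep 210 was lowest in both layers.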

How the data were processed

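Total RNA of microdissected granulosa and theca cells was sequenced after ribosomal RNA removal. Values are a normalized signal: the authors divided each library's gene counts by its size factor before they deposited them. The tools, per the submitters' processing notes, were FastQC 0.11.5, MultiQC 0.9, STAR 2.6.0c, Subread 1.6.1 with featureCounts, and DESeq2. The sources used here name no genome build. All values (100%) were whole multiples of 1 step per library (tolerance 1e-06), so whole reads were recovered. How reads shared with near-identical gene copies were counted is not given.

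Of the members, 59 were found in a RefSeq gene table (ARS-UI_Ramb_v3.0, used for names only). The filter kept genes that reached 10 in 5 or more libraries, and limma 3.58.1 (R 4.3.3, mean-variance trend, two-sided) was run on log2 of the value plus a pseudocount of 1, with Benjamini-Hochberg adjustment over all tested genes at 0.05. The animal was a block between layers and for the difference of effects. Layers of an animal come from the same sheep, and their deviations from group means had r between 0.42 and 0.80 over genes (genes are no independent replicates). In 9 of 9 animals the best match was the other layer of that animal. Among 36 pairs of libraries of a group none was a repeat (smallest chi-square per degree of freedom 27.7).

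Alternatives were edgeR 4.0.16 and DESeq2 1.42.0 on recovered reads, TMM scaling, pseudocounts of 5 and 0.5, no filter, other block settings and leaving out each animal. TMM scaling without sheep 209 and the subunit ratios were chosen after seeing the data. The limma fit was tested on simulated data. The NDUFA4 paralog NMES1 of a list was matched to its sheep symbol C7H15orf48 after other values were seen. Members and lists were chosen with earlier results of these data known, and a list's count is not independent evidence of its direction. Statistics were printed by rule for the members past the threshold (at most 10 per direction by smallest p) or, with fewer than 10, for the 10 of smallest unadjusted p, for NDUFA4, NDUFA4L2 and the SDH genes, and for up to 3 genes of each other list. Other members were named to describe their complex after their values were seen. Values of 1 member are not reported here.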

Additional observations from a re-analysis of the deposited data

Results flagged for a closer look

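In groups of 4 or 5 libraries, 12 of the 240 groups tested held a library that stood apart from the others by Dixon's test at 95%, which flags about 1 group in 20 by chance. Of these, 6 were the highest value in control granulosa cells, each time of sheep 268: ATP5F1B at 6273 (others 4623 to 4859), ATP5MD at 532 (others 336 to 358), NDUFA8 at 666 (others 481 to 507), NDUFB2 at 514 (others 401 to 420), NDUFS6 at 1232 (others 1021 to 1030) and NDUFS8 at 1086 (others 761 to 776). Prenatal T sheep 276 was highest in theca cells for ATP5F1B at 5972 (others 3844 to 4350), COX5A at 648 (others 440 to 485) and NDUFS8 at 868 (others 659 to 680), and in granulosa cells for NDUFA7 at 288 (others 186 to 210). The low values were those of ATP5MG in theca cells of prenatal T sheep 209, at 1430 (others 1904 to 2058), and of NDUFC1 in theca cells of control 244, at 252 (others 306 to 326).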

How the results depend on the processing

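Between layers, 27 members were called, 24 to 32 when each animal was left out, 28 with TMM scaling, edgeR or DESeq2, 25 without the filter and 29 with the replicate block as a random term. With no replicate block 12 members (11 higher and 1 lower) and 5729 genes (2656 higher and 3073 lower) were called. The main fit called 9210 genes (4661 higher and 4549 lower). The prenatal T comparisons called no member under any setting. DESeq2 called 16 granulosa genes, 7 theca genes and 18 genes differing in effect, and 32, 58 and 32 without sheep 209. All libraries with a replicate block gave 1 gene in granulosa cells and 0 in theca cells. The median of the members in theca cells was -0.0132 to 0.156 when each animal was left out.

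Sign changes were those of members not called; the cause was not tested. In granulosa cells under prenatal T, with DESeq2, edgeR, and then without sheep 209 DESeq2, edgeR and TMM scaling, NDUFA4L2 was 0.417, 0.425, 0.741, 0.736 and 0.645 and SDHB 0.0644, 0.0704, 0.246, 0.243 and 0.252. In theca cells without sheep 209, DESeq2 and edgeR gave 0.000662 and 0.00266 for SDHB and -0.00557 and -0.00418 for SDHD, which TMM scaling put at -0.00612, or -0.0337 without sheep 209. For the difference of effects without sheep 209 NDUFA4L2 was 0.111 (DESeq2), 0.138 (TMM) and 0.0801 (edgeR). Between layers NDUFA4 was 0.000722 with edgeR, 0.00553 with edgeR without sheep 209 and 0.0322 with no replicate block.

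Leaving out each animal in turn gave, in granulosa cells, NDUFA4L2 -0.788 to 0.623, SDHB -0.0926 to 0.23, NDUFAB1 -0.0603 to 0.277, NDUFA4 -0.0509 to 0.245 and SDHA -0.0167 to 0.19. In theca cells it gave SDHB -0.188 to 0.00316, SDHC -0.128 to 0.000585, SDHD -0.0227 to 0.0919 and NDUFA6 -0.0539 to 0.291. For the difference it gave NDUFA4L2 -1.41 to 0.104, SDHB -0.00753 to 0.21 and NDUFA4 -0.14 to 0.0126, and between layers NDUFA4 -0.0733 to 0.00289.

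With 4 or 5 animals per group, the spread between animals limits the precision of the prenatal T comparisons. A p that misses the threshold there does not show that levels were equal.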
